A study of Mus musculus with 30 samples.

Results

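Transmitter release at synapses depends on a set of proteins that load, dock, fuse and retrieve vesicles, and the RNA of 45 such genes was followed in the primary visual cortex (V1) of mice at postnatal days 14, 28 and 60 (P14, P28 and P60). The members were fixed by symbol and grouped by role as SNARE, synaptotagmin (with the Doc2 proteins), vesicle membrane and active zone, endocytosis, and synuclein genes. Every probe set whose array annotation gave a member symbol alone was used. This found 44 of the 45 symbols on 97 probe sets, among 15964 genes on 36899 probe sets in all, and Doc2a was not matched. All samples were V1 of mice reared under standard conditions, in 10 litters, of which 3 were taken at P14, 3 more at P28 and 4 at P60. Every litter was hybridised to the 3 chip types (A, B and C) of an Affymetrix mouse array, giving 30 arrays. How many animals were pooled in a litter sample, their sex and their strain are not given in the sources used here, and no treatment or genotype separates the groups. In tissue RNA, fewer cells of a type and less RNA per cell cannot be told apart.

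Synaptic vesicles fuse with the membrane when the vesicle protein VAMP, or synaptobrevin, zips together with syntaxin and SNAP-25, the SNARE proteins, while complexins hold and then assist the assembled complex. Synaptotagmins on the vesicle sense calcium and trigger fusion, Rab3 proteins and their effectors bring vesicles to the active zone, and NSF with its SNAP adaptors takes used SNARE complexes apart. Spent membrane is then recovered by clathrin, its AP-2 adaptor, dynamin, endophilin and synaptojanin. Paralogues divide these tasks among neurons: in the cortex Vamp1, Syt2 and Cplx1 are known from fast-spiking inhibitory neurons, and Vamp2, Syt1 and Cplx2 from excitatory neurons and others.

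The promoters of the 4 members that passed the age test with all litters or without 1 P14 litter (Rab3b, Syt11, Stx1a and Napb, described in turn further on) are shown to locate these genes and to let their start regions be compared. Each is the 250 bases upstream of the gene's start in RefSeq, build GRCm38.p6, written 5′ to 3′ on the gene's strand. Rab3b lies on the plus strand at chr4:108878820-108879069, Stx1a on the plus strand at chr5:135023232-135023481, Syt11 on the minus strand at chr3:88772600-88772849 and Napb on the minus strand at chr2:148732421-148732670. Capitals mark matches on either strand to 3 motifs, GGGCGG of the GC box, TATAAA of the TATA box and CCAAT of the CAAT box, where neighbouring GC box matches can overlap.
Rab3b: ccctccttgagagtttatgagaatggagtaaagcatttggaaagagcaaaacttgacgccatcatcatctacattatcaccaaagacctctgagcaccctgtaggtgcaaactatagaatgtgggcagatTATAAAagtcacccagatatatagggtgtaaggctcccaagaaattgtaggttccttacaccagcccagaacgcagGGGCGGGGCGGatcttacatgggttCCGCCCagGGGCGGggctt
Syt11: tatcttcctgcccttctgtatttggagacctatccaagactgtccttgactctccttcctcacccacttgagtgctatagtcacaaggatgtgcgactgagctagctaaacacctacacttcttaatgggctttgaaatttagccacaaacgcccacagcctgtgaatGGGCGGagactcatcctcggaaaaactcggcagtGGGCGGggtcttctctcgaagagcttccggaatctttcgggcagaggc
Stx1a: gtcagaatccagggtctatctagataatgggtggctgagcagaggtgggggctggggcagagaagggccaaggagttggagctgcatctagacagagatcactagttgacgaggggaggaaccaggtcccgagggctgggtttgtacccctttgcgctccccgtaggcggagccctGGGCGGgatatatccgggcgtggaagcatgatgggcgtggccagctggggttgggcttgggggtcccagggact
Napb: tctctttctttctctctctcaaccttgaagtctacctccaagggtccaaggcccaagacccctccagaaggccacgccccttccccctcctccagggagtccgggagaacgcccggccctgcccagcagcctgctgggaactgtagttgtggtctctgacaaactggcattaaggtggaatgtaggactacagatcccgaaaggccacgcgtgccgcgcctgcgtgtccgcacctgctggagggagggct
The Rab3b window held 4 matches to GGGCGG and 1 to TATAAA. Syt11 held 2 matches to GGGCGG, Stx1a held 1, and the Napb window held none of the 3 motifs. Over 32851 promoters of this length, GGGCGG on either strand occurred in 32.7%, TATAAA in 12.4% and CCAAT in 33.8%. Among 46 promoters of the 35 members in the table, GGGCGG occurred in 54.3%, TATAAA in 6.52% and CCAAT in 23.9%. The motif TGACGT, the core of the cyclic AMP response element, was present in 15.2% of the members' promoters and 6.47% of all, and in none of the 4 windows shown. These are letter matches, given as a description.

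Of the 97 member probe sets, 82 passed the filter on low signal and entered the test, and they covered 43 genes. All 11 SNARE genes, 7 synaptotagmin genes, 13 vesicle membrane and active zone genes, 10 endocytosis genes and both synuclein genes were tested. Doc2b, a soluble calcium sensor of release, stayed too dim for the test: its signal on chip A was 124, 144 and 155 at P14, 87, 106 and 101 at P28, and 120, 38, 73 and 46 at P60. For the tests 1 probe set per gene was kept (a tested one, chip A before B before C, then the brightest). Values are MAS5 signals on a linear scale, read within a probe set only, and changes are differences in the mean of log2(signal + constant) with limma's standard error (SE). The constants for chips A, B and C were 38.6, 57.8 and 44.0. The comparisons of P28 and of P60 with P14 share the P14 litters.

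The P14 litters were not of even quality, and on litter 1 many release gene probe sets stood apart. On P14 litter 1 the 3′ to 5′ signal ratio ran from 9.57 to 12.2 for Gapdh and from 12.2 to 12.8 for Actb over its 3 arrays, against 0.741 to 1.32 and 1.04 to 1.5 on the other 27 arrays. This litter lay over 1 log2 unit from the mean of P14 litters 2 and 3 on 33 of the 82 member probe sets (40.2%), above on 10 and below on 23, compared with 21.8% of all 20724 tested probe sets. For comparison, each P28 litter lay that far from the mean of the other two on 0, 2 and 3 of the 82. Different probe sets of 1 gene put P14 litter 1 on opposite sides: of 25 members with several tested probe sets, 19 had it above the other P14 litters on one and below on another. Its deviation spanned over 2 log2 units between probe sets of the same gene in 10 members, while the difference between litters 2 and 3 spanned that much in none.

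Dnm1, which encodes dynamin 1, the GTPase that pinches endocytic vesicles from the membrane, shows the pattern most plainly. Its probe set 103030_at read 17182, 16628 and 21270 in P14 litters 1, 2 and 3. The probe set 103031_g_at read 24698, 17985 and 20032. A further one, 133140_at on chip C, read 15, 2991 and 2859. Litter 1 lay between the others on the first probe set, above them on the next and near 0 on the last, a span of 6.04 log2 units. Cplx1, the complexin 1 gene, read 135, 4344 and 4672 on 101198_at but 11696, 7812 and 8044 on 106075_at. Cltc, the clathrin heavy chain, read 11926, 4539 and 4559 on 160252_at but 39, 459 and 380 on 134316_at. Thus the same litter was the lowest or the highest of its age depending on the probe set. Changes from P14 are therefore given with all litters and, for the genes and groups described at length, also without P14 litter 1, and the part of the 3′ to 5′ ratio in these differences was not tested.

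**Figure D1:**
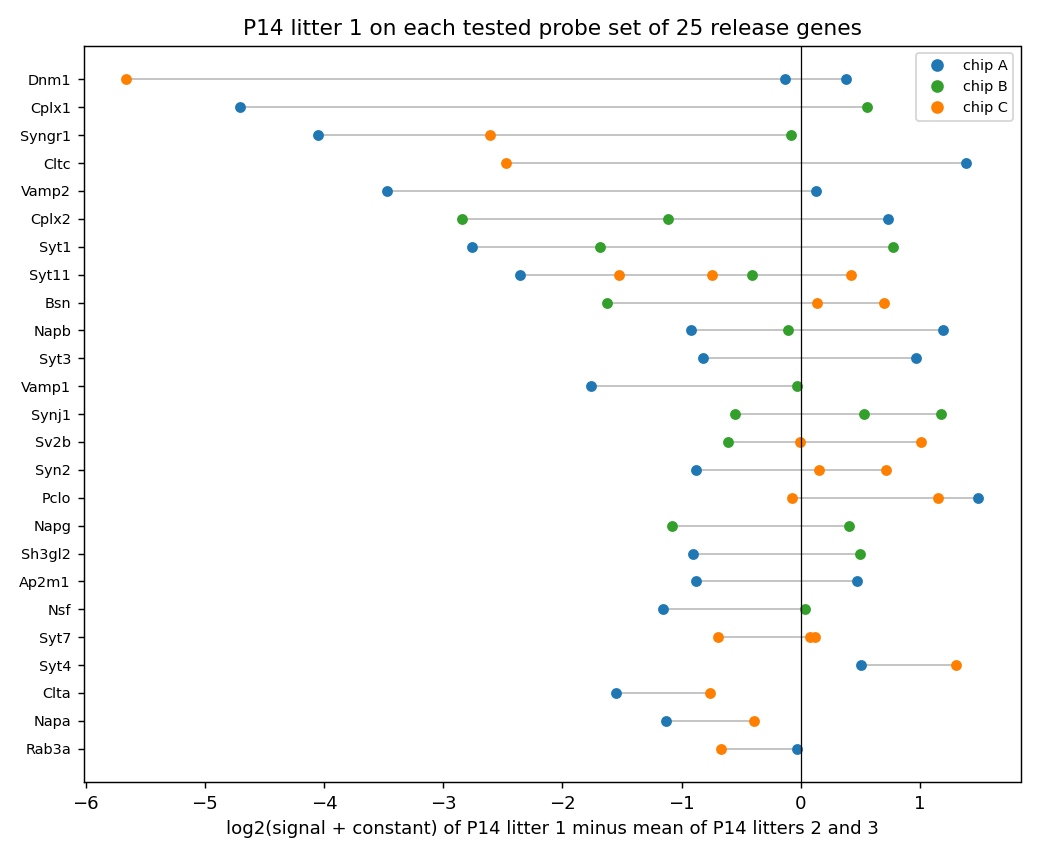
Deviation of P14 litter 1 from the mean of P14 litters 2 and 3, in log2(signal + constant) on the horizontal axis, for each tested probe set (points, coloured by chip type) of the 25 release genes with several, joined by a line per gene. In 19 genes the points lie on both sides of 0, and the lowest, at -5.66, is a chip C probe set of Dnm1.

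Across the 3 ages, few release genes moved beyond the spread between litters. With all litters, 0 of the 43 members passed the limma test (Benjamini-Hochberg adjusted p under 0.05 over all tested probe sets) from P14 to P28, where 0.0089% of the 11240 genes did, and 4 had an unadjusted p under 0.05, a cut passed by 7.64% of all genes. Between P28 and P60 the limma count was again 0 of 43 (0% of all genes), with 2 at an unadjusted p under 0.05 (5.69% of all genes). From P14 to P60 only Rab3b passed, as the lower gene, where 0.489% of all genes passed and 0.338% passed lower, and 3 members had an unadjusted p under 0.05, compared with 16.2% of all genes. The limma F test over the 3 ages called 0 members and 0.133% of all genes. Without P14 litter 1, the limma test from P14 to P60 called 4 of 43 members, where 2.63% of all genes passed. Rab3b, Stx1a and Syt11 were the lower ones (1.69% of all genes) and Napb the higher one (0.943% of all genes). From P14 to P28 it called 0 members and 0.169% of all genes. The F test then called Rab3b alone among the members and 0.676% of all genes. A restricted set, defined earlier with these data in view, also left out P60 litters 1 and 4 on chips A and B and P60 litter 2 on chip C, and there Napb, Syt11 and Rab3b passed from P14 to P60 (2.3% of all genes). When limma instead gave each array an estimated weight, 7 members passed from P14 to P60 (18.6% of all genes), 5 from P14 to P28 (5.93%) and 8 over the 3 ages (15.7%).

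As a group the members were centred near no change, and their balance moved with P14 litter 1. From P14 to P60 the median log2 change over the 43 members was 0.14, with 26 higher and 17 lower, beside 0.05 over all genes. Without that litter it was -0.15, with 18 higher and 25 lower, beside 0.01 over all genes. From P14 to P28 the median went from 0.06 with all litters to -0.08 without the litter, while from P28 to P60 it was -0.02, with 21 higher and 22 lower. The sign of the P60 change held under every setting tried in 19 of the 43 members. With all litters, the members whose litters did not overlap between ages were few, and their share was not tested against that of all genes. They were 3 higher and 3 lower from P14 to P28 (6.98% each, beside 9.71% and 8.29% of all genes), 1 higher and 2 lower from P28 to P60 (2.33% and 4.65%, beside 3.91% and 5.43%), and 1 higher and 2 lower from P14 to P60 (2.33% and 4.65%, beside 6.7% and 6.67%). Without P14 litter 1 the last pair became 5 higher (11.6%, beside 14.5% of all genes) and 9 lower (20.9%, beside 15.1%).

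**Figure D2:**
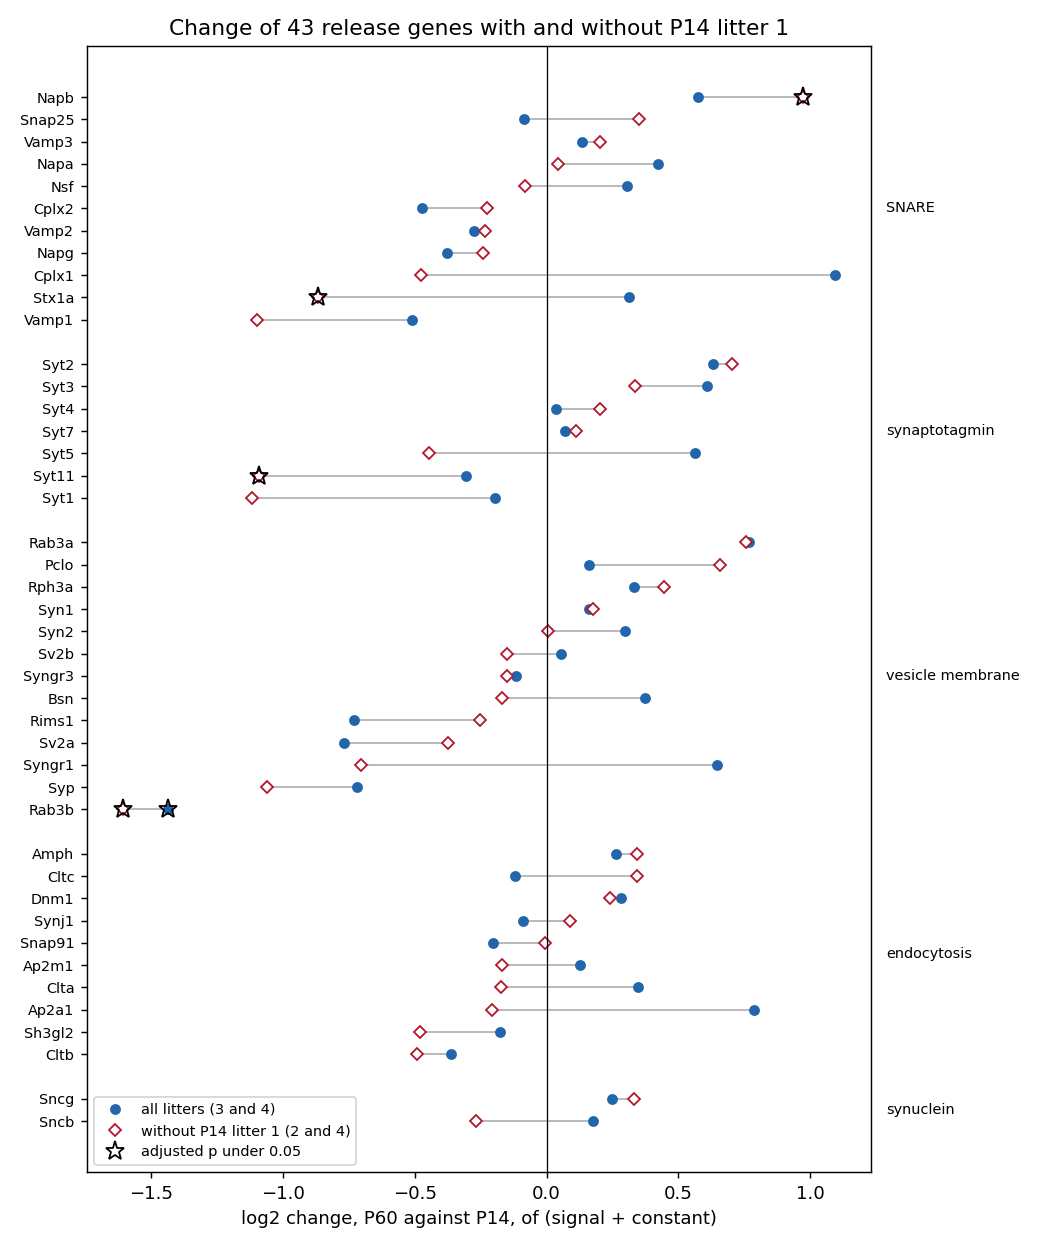
Change from P14 to P60 in log2(signal + constant) for the 43 tested release genes by group, with all litters (filled circles, 3 and 4 litters) and without P14 litter 1 (open diamonds, 2 and 4 litters); stars mark a limma adjusted p under 0.05. Rab3b is starred both ways, at -1.44 and -1.61, and Cplx1 moves from 1.09 to -0.47.

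Rab3b encodes a small GTPase of the Rab3 family, which binds vesicles in its GTP form and recruits effectors at the release site. Its signal (160868_at, chip A) was 303, 492 and 409 in the P14 litters, 231, 236 and 163 at P28, and 103, 117, 132 and 136 at P60. The litters of the 3 ages did not overlap, each later age lying wholly under the one before. From P14 to P60 Rab3b fell by 1.44 on the log2 scale (SE 0.25, n = 3 and 4, limma adjusted p = 0.0346), and without P14 litter 1 it fell by 1.61 (limma adjusted p = 0.0175). The P60 mean of 122 stood a little above the chip's background of 98.4 (the 95th percentile of bacterial control probe sets), so the size of the fall depends on the added constant: it was -1.58 with a constant of 16 and -1.16 with a constant of 100. The steps from P14 to P28 (-0.81, limma adjusted p = 0.475) and from P28 to P60 (-0.62, limma adjusted p = 0.894) did not pass on their own. The P60 call rested on most of the litters being present. Leaving out P14 litter 2 or 3 gave a limma adjusted p of 0.158 or 0.135, leaving out P28 litter 1, 2 or 3 gave 0.0735, 0.0687 or 0.0619, and leaving out P60 litter 1, 2 or 4 gave 0.0987, 0.0672 or 0.0975. It held without P14 litter 1 and without P60 litter 3 (0.0379), and the change lay between -1.61 and -1.29 in all these fits. Without a filter on low signal the change was the same and the limma adjusted p was 0.0564. With the litter number as a further term in the fit the change was -1.48 (limma adjusted p = 0.176).

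**Figure D3:**
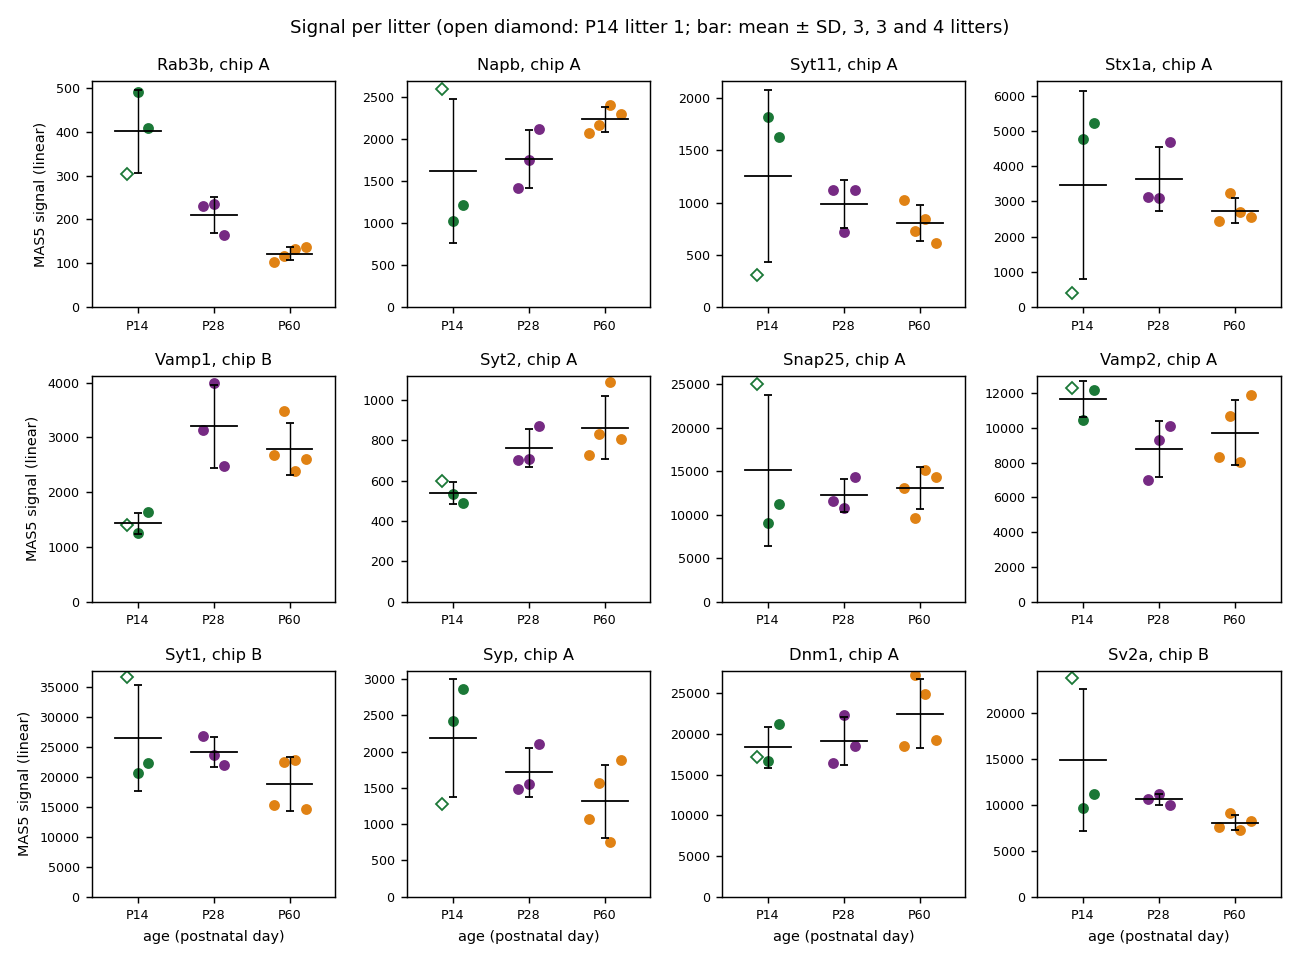
MAS5 signal on a linear scale by age for 12 release genes, 1 probe set each (the brightest for Vamp1 and Syt1, otherwise the kept one), with every litter as a point, P14 litter 1 as an open diamond and bars for the mean ± SD of 3, 3 and 4 litters. The Rab3b litters step down from 303 to 492 at P14 to 103 to 136 at P60. P14 litter 1 stands apart from the other P14 litters in several genes, among them Napb, Syt11, Stx1a, Sv2a, Snap25 and Syt1.

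The SNARE genes and their helpers showed no common direction. With all litters their P14 to P60 changes ran from -0.51 to 1.09 (median 0.14, 6 higher and 5 lower, none past the limma threshold), and without P14 litter 1 from -1.10 to 0.97 (median -0.23). Stx1a encodes syntaxin 1A, the plasma membrane SNARE. It read 394, 4778 and 5228 at P14, 3120, 3106 and 4701 at P28, and 2446, 3249, 2708 and 2554 at P60 (100933_at, chip A). P14 litter 1 lay far below all other litters, and the remaining P14 litters lay above every later one. The change to P60 was 0.31 with all litters (SE 0.67, limma adjusted p = 0.844) and -0.87 without that litter (SE 0.19, limma adjusted p = 0.0415). In the restricted set it was -0.75 (limma adjusted p = 0.106). It had no further probe set.

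Napb encodes beta-SNAP, the brain form of the adaptor through which NSF disassembles SNARE complexes. Its signal (100458_at, chip A) was 2598, 1028 and 1215 at P14, 1422, 1745 and 2120 at P28, and 2069, 2163, 2406 and 2299 at P60. P14 litter 1 was the highest of the 10 litters, and the other P14 litters were the lowest. From P14 to P60 the change was 0.58 with all litters (SE 0.28, limma adjusted p = 0.343), and without P14 litter 1 Napb rose by 0.97 (SE 0.18, limma adjusted p = 0.0211). In the restricted set it was 1.00 (limma adjusted p = 0.0354). Its other probe sets also read higher at P60, by 0.41 on 92952_f_at and 0.99 on 111148_at with all litters and by 0.10 and 0.95 without P14 litter 1, none past the limma threshold. Napa and Napg, the alpha and gamma forms, gave 0.42 and -0.38 with all litters on their kept probe sets, with limma adjusted p = 0.489 and 0.394. A second Napg probe set, 163773_at, gave -0.78 with all litters (limma adjusted p = 0.248) and -1.14 without P14 litter 1 (limma adjusted p = 0.0438). Without that litter Napa and Napg gave 0.04 and -0.24 on the kept probe sets (limma adjusted p = 0.925 and 0.524). Nsf itself gave 0.31 on 102342_at, where P14 litter 1 read 1136 beside 2515 and 2656, and -0.22 on 106301_at. Without that litter both were lower at P60, at -0.08 and -0.21, and none of these Nsf values passed the limma test.

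Snap25, the gene of the plasma membrane SNARE partner of syntaxin, read 25059, 9055 and 11254 at P14, 11572, 10755 and 14386 at P28, and 13123, 9621, 15210 and 14339 at P60. Apart from P14 litter 1 the ages overlapped, and the P60 change was -0.09 with all litters and 0.35 without that litter (limma adjusted p = 0.914 and 0.382). Vamp2, the main vesicle SNARE of forebrain synapses, read 12310, 10436 and 12194 at P14, 6976, 9297 and 10080 at P28, and 8328, 10653, 8042 and 11875 at P60 (98926_at). All P28 litters lay below the P14 litters, and P60 overlapped both. Its P60 change was -0.27 with all litters (SE 0.22) and -0.23 without P14 litter 1 (limma adjusted p = 0.549 and 0.570). A dimmer Vamp2 probe set, 98925_at, on which P14 litter 1 read 143 beside 1885 and 2073, gave -0.17 with all litters and -1.33 without that litter (limma adjusted p = 0.924 and 0.0768), and in the restricted set it fell by 1.66 (limma adjusted p = 0.0380).

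Vamp1, the paralogue of fast-spiking neurons and the brainstem, was read differently by its probe sets. On the kept one, 93652_i_at of chip A, signals were scattered, at 71, 299 and 375 at P14 and 65, 226, 409 and 37 at P60. On the brighter 114088_at of chip B they were 1400, 1253 and 1640 at P14, 3142, 3985 and 2471 at P28, and 2679, 3487, 2394 and 2610 at P60. Here all P28 and P60 litters lay above all P14 litters, P14 litter 1 included. The change on 114088_at was 1.11 to P28 (SE 0.22) and 0.93 to P60 (SE 0.21), with limma adjusted p = 0.191 and 0.0837, so neither passed, and the P60 value without P14 litter 1 was 0.92 (limma adjusted p = 0.0544). The choice of probe set thus turned the sign, since 93652_i_at gave -0.51. With array weights both probe sets passed from P14 to P60 in opposite directions, at -1.42 on 93652_i_at and 0.79 on 114088_at (limma adjusted p = 0.0332 and 0.0107).

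Cplx1 had the largest positive P14 to P60 value of any member with all litters, and that value rested on P14 litter 1. On 101198_at the signals were 135, 4344 and 4672 at P14, 3996, 3783 and 4132 at P28, and 3171, 2720, 3342 and 3784 at P60. The log2 change was 1.09 (SE 0.87, limma adjusted p = 0.552) with all litters and -0.47 without that litter (limma adjusted p = 0.133). On 106075_at, the brighter probe set, it was 0.24 with all litters and 0.43 without (limma adjusted p = 0.629 and 0.283), and in the restricted set it rose by 0.70 (limma adjusted p = 0.0449). Cplx2 was at its lowest at P28 on the kept 98782_at (mean 1424 ± 457 at P14, 680 ± 53.5 at P28 and 1033 ± 374 at P60, SD, n = 3, 3 and 4), and its step to P28 there was -0.98 with all litters and -0.74 without P14 litter 1 (limma adjusted p = 0.444 and 0.373). On the brightest, 117079_at, P28 was the highest age (mean 9948 ± 3876, 12113 ± 1725 and 11397 ± 2804, SD, n = 3, 3 and 4), with P14 litter 1 at 5573 beside 11319 and 12952. The step to P28 there was 0.36 with all litters and -0.01 without that litter (limma adjusted p = 0.835 and 0.996). Vamp3, the broadly expressed cellubrevin, gave 0.14 at P60 with all litters and 0.20 without P14 litter 1 (limma adjusted p = 0.833 and 0.755).

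Among the synaptotagmins, 7 genes were tested and none passed with all litters. Their P14 to P60 changes ran from -0.31 to 0.63 (median 0.07, 5 higher and 2 lower), and without P14 litter 1 from -1.12 to 0.70 (median 0.11, 4 higher and 3 lower). Syt1, the fast calcium sensor of most forebrain synapses, read 36623, 20621 and 22245 at P14, 26894, 23700 and 21947 at P28, and 15316, 22508, 22781 and 14570 at P60 on its brightest probe set (113587_at, chip B). The ages overlapped, and the change to P60 was -0.48 with all litters (SE 0.27, limma adjusted p = 0.397) and -0.22 without P14 litter 1 (limma adjusted p = 0.614). On 93005_at, the kept probe set, it read 607, 5257 and 3578 at P14, 2598, 1990 and 3140 at P28, and 1338, 1465, 4064 and 1910 at P60, with P14 litter 1 the lowest of all and P60 litter 3 apart from its age. The change there was -0.20 with all litters and -1.12 without P14 litter 1 (limma adjusted p = 0.894 and 0.124).

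Syt2, the fast sensor of brainstem synapses and of fast-spiking cortical neurons, lay the other way. It read 598, 533 and 488 at P14, 703, 710 and 870 at P28, and 727, 830, 1090 and 806 at P60 (93159_at, chip A). Every later litter lay above every P14 litter. Its change to P60 was 0.63 (SE 0.19) with all litters and 0.70 without P14 litter 1, with limma adjusted p = 0.160 and 0.0806. Syt3, a high-affinity calcium sensor, read 546, 846 and 1167 at P14, 892, 716 and 760 at P28, and 1546, 1496, 821 and 1331 at P60 (92916_at). Its P60 litters were high except litter 3, and the change was 0.61 (SE 0.28) with all litters and 0.33 without P14 litter 1 (limma adjusted p = 0.318 and 0.486). Syt7, the slow sensor of asynchronous release, had all P28 litters above P14 on 136624_at, at 8791 to 11127 beside 7505 to 8611, with a change of 0.31 to P28 (limma adjusted p = 0.768) and 0.07 to P60, which without P14 litter 1 were 0.35 and 0.11. Its 3 tested probe sets differed in the sign of the P60 change, over 0.79 log2 units with all litters and 1.05 without P14 litter 1.

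Syt11, a synaptotagmin that does not bind calcium and restrains vesicle retrieval, was lower at P60 than at P14 on 4 of its 5 tested probe sets. The kept one, 98339_at, read 306, 1820 and 1630 at P14, 1118, 716 and 1124 at P28, and 1023, 727, 842 and 615 at P60. P14 litter 1 was the lowest litter and the other P14 litters were the highest. The change to P60 was -0.31 with all litters (SE 0.48, limma adjusted p = 0.782), and without P14 litter 1 Syt11 fell by 1.09 (SE 0.23, limma adjusted p = 0.0328). In the restricted set it was -1.10 (limma adjusted p = 0.0380). The brightest probe set, 165460_at on chip C, read 15714, 10732 and 12793 at P14, 7857, 7697 and 9327 at P28, and 6821, 5179, 6735 and 7594 at P60. There the 3 ages did not overlap with P14 litter 1 included, and the change was -0.98 (SE 0.21, limma adjusted p = 0.0665) with all litters and -0.84 without that litter (limma adjusted p = 0.0553). Of the other 3 tested probe sets, 112781_at and 168346_r_at gave -0.31 and -0.32 with all litters and -0.44 and -0.83 without P14 litter 1, while 166580_r_at gave 0.33 and 0.08. Syt4 and Syt5, further neuronal isoforms, gave 0.03 and 0.56 with all litters on their kept probe sets and 0.20 and -0.45 without that litter, none past the limma threshold. The 2 tested Syt4 probe sets differed in sign both ways, over 1.09 log2 units with all litters and 0.83 without that litter.

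In the vesicle membrane and active zone group, 13 genes ran from -1.44 (Rab3b) to 0.77 (Rab3a) with all litters (median 0.16, 8 higher and 5 lower, only Rab3b past the limma threshold). Without P14 litter 1 the median was -0.15, with 5 higher and 8 lower. Syp encodes synaptophysin, the most abundant integral protein of the vesicle and a common marker of synapses. It read 1280, 2423 and 2859 at P14, 1484, 1551 and 2102 at P28, and 1070, 1568, 752 and 1879 at P60 (160181_at). Without P14 litter 1, all P60 litters lay below P14, and the change was -1.06 (limma adjusted p = 0.0842). With that litter it was -0.72 (SE 0.34, limma adjusted p = 0.326). The synapsin 1 gene Syn1, whose product tethers vesicles in the reserve pool, read 3537, 3017 and 3888 at P14, 3651, 4124 and 3668 at P28, and 4184, 4617, 3059 and 3804 at P60 (137221_f_at, chip C). Its ages overlapped, and the change was 0.16 with all litters (SE 0.20) and 0.17 without P14 litter 1 (limma adjusted p = 0.721 and 0.684).

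Sv2a encodes a vesicle glycoprotein that is the binding site of the antiepileptic levetiracetam. Its signal (162930_at, chip B) was 23750, 9696 and 11130 at P14, 10631, 11176 and 9920 at P28, and 7598, 9119, 7216 and 8251 at P60. All P60 litters lay below all earlier litters, with or without P14 litter 1, which was the highest. The P60 change was -0.77 with all litters (SE 0.28, limma adjusted p = 0.222) and -0.37 without that litter (SE 0.16, limma adjusted p = 0.231). Syngr1, a relative of synaptophysin, read 11242, 11550 and 12248 at P14 and 7316, 10007, 9994 and 7075 at P60 on its brightest probe set, 116954_at, where the groups did not overlap (change -0.46 with all litters and -0.48 without P14 litter 1, limma adjusted p = 0.291 and 0.191). On the kept 102221_at, where P14 litter 1 read 19 beside 1064 and 777, the change was 0.65 with all litters and -0.70 without that litter (limma adjusted p = 0.703 and 0.0932).

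Rab3a, the main Rab3 protein of brain synapses, lay the other way from Rab3b on both of its tested probe sets. On 160524_at it read 214, 132 and 354 at P14, 226, 123 and 445 at P28, and 284, 312, 440 and 635 at P60. On 167871_i_at it read 459, 886 and 642 at P14, 1217, 1117 and 884 at P28, and 1004, 1199, 1304 and 833 at P60. The ages overlapped on both, with changes to P60 of 0.77 (SE 0.41) and 0.70 (SE 0.26) and limma adjusted p = 0.373 and 0.230. Leaving out P14 litter 1, they were 0.76 and 0.48 (limma adjusted p = 0.388 and 0.335). The Rab3 effector rabphilin, Rph3a, was higher in all P28 litters (7399 to 8739) than in the P14 litters (4791 to 6770), with a change of 0.49 with all litters and 0.60 without P14 litter 1 (limma adjusted p = 0.598 and 0.237). Rims1, the active zone scaffold that binds Rab3, had a P14 litter 1 of 9471 beside 2833 and 4188. Its change to P60 was -0.73 with all litters and -0.25 without that litter. The active zone giants Pclo and Bsn gave 0.16 and 0.37 on their kept probe sets and -0.93 and -0.28 on their brightest ones with all litters. The kept ones gave, without P14 litter 1, 0.66 and -0.17 and the brightest -0.54 and -0.05, and none passed the limma test either way.

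In the endocytosis group no gene passed the test. Its 10 P14 to P60 values ran from -0.36 to 0.79 with all litters (median 0.02, 5 higher and 5 lower) and from -0.49 to 0.34 without P14 litter 1, with no limma call either way. Dnm1 on 103030_at read 16501, 22324 and 18530 at P28 and 18554, 27222, 24972 and 19272 at P60, beside the P14 values given earlier. The ages overlapped, with a change to P60 of 0.28 with all litters (SE 0.22, limma adjusted p = 0.540) and 0.24 without P14 litter 1 (limma adjusted p = 0.559). This is the reading of 1 probe set. The 3 tested Dnm1 probe sets differed in the sign of that change, over 0.59 log2 units with all litters and 1.66 without P14 litter 1. Cltc read 4898, 5869 and 5221 at P28 and 4977, 5284, 6822 and 6210 at P60 on 160252_at. Its P60 litters all lay above P14 litters 2 and 3, and the change was -0.12 with all litters and 0.34 without P14 litter 1 (limma adjusted p = 0.874 and 0.286).

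Ap2a1, an alpha subunit of the AP-2 adaptor that links cargo to clathrin, read 108, 1070 and 1165 at P14, 932, 999 and 1001 at P28, and 1053, 999, 692 and 1175 at P60. P14 litter 1 lay far below all other litters, and the change went from 0.79 with all litters to -0.21 without it (limma adjusted p = 0.520 and 0.606). Cltb, a clathrin light chain, read 985, 1254 and 1345 at P14, 916, 793 and 1124 at P28, and 1191, 701, 1038 and 801 at P60. The ages overlapped, with a change of -0.36 with all litters and -0.49 without P14 litter 1 (limma adjusted p = 0.449 and 0.255). With all litters the endophilin gene Sh3gl2 gave -0.18 on its kept probe set and -0.43 on its brightest, and Synj1, the lipid phosphatase that uncoats vesicles, gave -0.09. Amph, Snap91 and Ap2m1, for amphiphysin, the AP180 coat protein and an AP-2 subunit, gave 0.26, -0.20 and 0.13. With P14 litter 1 left out, Sh3gl2 gave -0.48 and -0.26, Synj1 0.09, Amph 0.34, Snap91 -0.0050 and Ap2m1 -0.17. None of these passed the limma test with or without that litter.

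Of the synucleins, small presynaptic proteins, Sncb read 2152, 4971 and 6032 at P14, 3091, 5361 and 3989 at P28, and 3264, 6463, 3026 and 6666 at P60. Sncg read 432, 316 and 407 at P14, 364, 374 and 282 at P28, and 514, 568, 382 and 403 at P60 (161859_f_at). The ages overlapped for Sncb, and for Sncg the P60 litters lay above the P28 litters but not above P14. Their P14 to P60 changes were 0.18 (SE 0.39) and 0.25 (SE 0.21), with limma adjusted p = 0.850 and 0.587. The Sncb value turned, without P14 litter 1, to -0.27 and that of Sncg was 0.33 (limma adjusted p = 0.691 and 0.453).

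Paralogues with the same task were then compared within litters, as the difference of the log2 values of both genes, over 10 of 11 listed pairs (Doc2a and Doc2b could not be). On the kept probe sets none of the 10 pairs differed between ages after adjustment (exact permutation of the litters over the 3 ages, Benjamini-Hochberg over the pairs). The p-values of this test are for any difference among the 3 ages, while the changes and SEs printed beside them are from P14 to P60. The lowest was Rab3a against Rab3b, where Rab3a changed by 2.20 more than Rab3b from P14 to P60 (SE 0.56, exact p = 0.0195, adjusted p = 0.195). With the brightest probe set of each gene, an alternative chosen after seeing the data, 3 pairs passed. Rab3a then changed by 2.14 more than Rab3b (SE 0.17, exact permutation adjusted p = 0.00952), Vamp1 by 1.21 more than Vamp2 (SE 0.24, exact permutation adjusted p = 0.0159) and Syt2 by 1.11 more than Syt1 (SE 0.22, exact permutation adjusted p = 0.0159). In each of these pairs all 3 P14 litters, litter 1 included, lay below all P60 litters. The Vamp1 difference was already 1.53 (SE 0.26) at P28, while that of Syt2 was 0.55 in each of the steps to P28 and to P60. On the kept probe sets the Vamp pair lay the other way from P14 to P60. Vamp1 minus Vamp2 was -0.24 (SE 0.81) there with all litters and -0.87 (SE 0.83) without P14 litter 1. The brightest probe sets of the Rab3, Vamp and Syt pairs are on different chip types, so differences between arrays of a litter do not cancel in any of these pairs.

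The complexin pair depended on P14 litter 1. With all litters the change of Cplx1 minus that of Cplx2 on their brightest probe sets was -0.01 (SE 0.40, exact permutation p = 0.966). Without that litter Cplx1 changed by 0.55 more than Cplx2 (SE 0.11, exact permutation adjusted p = 0.0317 over 1260 arrangements), beside adjusted values of 0.0159 for the Rab3, 0.0317 for the Vamp and 0.0496 for the Syt pair. On the kept probe sets without that litter only Syt2 against Syt1 passed, with a difference of 1.82 (SE 0.34, exact permutation adjusted p = 0.0476). The remaining pairs, Syn1 and Syn2, Sv2a and Sv2b, Syngr1 and Syngr3, Sncb and Sncg, Clta and Cltb, and Napa and Napb, did not pass in any of the 4 versions. That does not show that their members change alike: for Napb against Napa the difference was 0.15 with an SE of 0.59 with all litters and 0.93 with an SE of 0.25 without P14 litter 1.

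**Figure D4:**
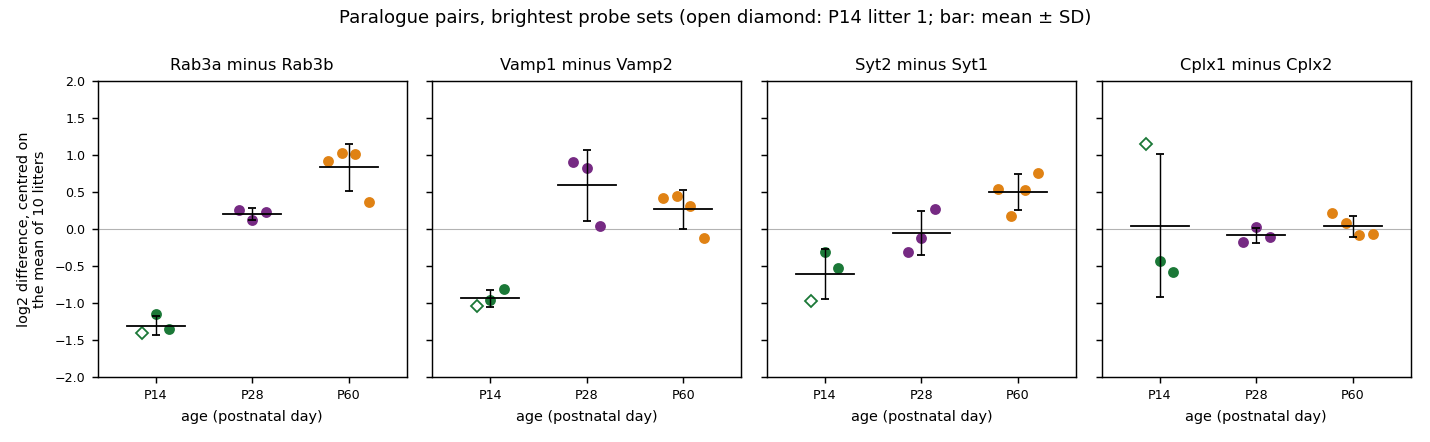
Difference in log2(signal + constant) between paralogues in each litter by age, on the brightest probe sets and centred on the mean of the 10 litters; the open diamond is P14 litter 1 and bars give the mean ± SD. Rab3a over Rab3b, Vamp1 over Vamp2 and Syt2 over Syt1 are lower in all P14 litters than in all P60 litters, while for Cplx1 over Cplx2 P14 litter 1 is the highest of all.

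Markers of the cells that use Vamp1, Syt2 and Cplx1 were read on the same arrays. The summed signal of 7 fast-spiking interneuron markers on the arrays was 6560 and 7814 in P14 litters 2 and 3 and 11798 in P14 litter 1, beside 12135 to 13577 at P28 and 11570 to 13448 at P60, and none of the 7 was below background at every age. Of its 6 tested genes 4 were higher and 2 lower at P60 than at P14, and Scn4b and Hapln4 rose (1.58 and 1.22 on the log2 scale, limma adjusted p = 0.0110 and 0.0491, where 0.489% of all genes passed). The same genes passed without P14 litter 1 (2.63% of all genes). Pvalb, the parvalbumin gene, gave 0.27 and Tac1 and Scn1a gave -0.11 and -0.0059 with all litters, and 0.41, 0.38 and 0.54 without P14 litter 1, none past the limma threshold. Of 8 markers of GABAergic interneurons in general, 4 were higher and 4 lower at P60 with all litters (median -0.07), none past that threshold. Without P14 litter 1 Gad1 passed as higher (1.08, limma adjusted p = 0.0187) and Gad2 as lower (-2.07, limma adjusted p = 0.0321). Over the same litters, 8 cortical excitatory markers summed to 25960 to 30697 at P14, 21000 to 23887 at P28 and 18767 to 26246 at P60, and 10 pan-neuronal markers to 37850 to 50589, 40687 to 44846 and 31183 to 42279. Myelin markers summed to 5592 and 6416 in P14 litters 2 and 3, 12030 in P14 litter 1 and 12223 to 16626 at P60. Of 8 tested myelin genes 7 were higher at P60, of which Mag alone passed with all litters, and Mbp, Mag, Mobp and Mal passed without P14 litter 1. Endothelial markers summed to 8889 to 10499 at P14 and 3932 to 6295 at P60. Most of that sum was Slco1c1, at 7887 to 8427 and 2645 to 4700. Of 5 tested endothelial genes 2 were higher and 3 lower at P60 than at P14 with all litters. None of the tested excitatory, pan-neuronal or endothelial markers passed the limma test from P14 to P60 with all litters, and without P14 litter 1 it called 1 of 8 excitatory markers higher, 1 of 10 pan-neuronal markers lower and 2 of 5 endothelial markers lower. Subcortical and thalamic markers summed to 2051 to 2226 at P14 and 2348 to 2949 at P60. Choroid plexus markers summed to 474 to 789 and 1099 to 1418, with 2 of 5 below background at every age. Hippocampal markers overlapped, at 1880 to 4357 and 1959 to 3990. No tested gene of these lists passed the limma test from P14 to P60 with or without P14 litter 1. The part of these markers' differences in the changes of Rab3b, Vamp1, Syt2 and the other members was not tested.

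Other genes of the vesicle cycle, listed by their known function, are given as counts. Of 35 tested genes of the remaining release machinery, 10 were higher and 25 lower at P60 than at P14 with all litters (median -0.33). Without P14 litter 1 the counts were the same (median -0.26). The share lower was 71.4% both ways, beside 45.5% and 48.7% of all genes. In the restricted set 11 were higher and 24 lower (median -0.08). None of the 35 passed the limma test with all litters. The largest values there were -1.52 for Ppfia4, a liprin scaffold (limma adjusted p = 0.187), and -0.94 for Rab3d, a further Rab3 paralogue (limma adjusted p = 0.430). At P60 Ppfia4 read 101, 361, 467 and 59 and Rab3d 34, 301, 239 and 43, with litters 1 and 4 the lowest in both. In the restricted set, which leaves out those litters and P14 litter 1, the changes were -0.77 and -0.04. Erc1, an active zone scaffold, was the one gene of this list to pass without P14 litter 1 (2.63% of all genes). It fell there by 1.16 (limma adjusted p = 0.0479), and with all litters it gave -0.79 (limma adjusted p = 0.253). Among 19 vesicle transporter and proton pump genes 7 were higher and 12 lower (median -0.18; without P14 litter 1, 6 and 13, median -0.15), led with all litters by Slc17a6, a glutamate transporter (-0.51), and Atp6v1a, a pump subunit (-0.50), with limma adjusted p = 0.325 and 0.427. Without P14 litter 1 the pump subunit gene Atp6v0a1 alone of these 19 passed (2.63% of all genes). It fell there by 0.95 (limma adjusted p = 0.0179). With all litters it gave 0.05 (limma adjusted p = 0.970), with P14 litter 1 at 254 beside 2466 and 2184 in litters 2 and 3. Of 21 other endocytosis genes 12 were higher and 9 lower with all litters (median 0.07), and without P14 litter 1 the balance turned to 8 higher and 13 lower (median -0.10). The largest values with all litters were those of Ap2b1, an AP-2 subunit (-1.18), and Sh3gl3, an endophilin (-0.95), with limma adjusted p = 0.327 and 0.139. Hspa8, the chaperone that strips clathrin coats, alone of these 21 passed without P14 litter 1 (2.63% of all genes). It rose there by 0.79 (limma adjusted p = 0.0212). Its signal was 5154 and 4931 in P14 litters 2 and 3 and 7946, 8660, 8915 and 9612 at P60. With all litters it gave 0.47 (limma adjusted p = 0.366), with P14 litter 1 at 9927.

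The remaining probe sets of the members give the same picture of unequal readings. Among the 25 members with several tested probe sets, the sign of the P14 to P60 change differed between probe sets in 15 with all litters and in 12 without P14 litter 1. Without that litter every probe set was higher at P60 for 3 genes, Napb, Syt3 and Rab3a. Every probe set was lower for 10, namely Vamp2, Nsf, Napg, Cplx2, Syt1, Syngr1, Sv2b, Bsn, Clta and Sh3gl2. In the others the probe sets disagreed, by up to 2.15 log2 units for Cltc and 2.02 for Vamp1. Syn2, for synapsin 2, is an example: 165743_at read 12483 on average in P14 litters 2 and 3 and 7468 ± 1700 (SD, n = 4) at P60, a change of -0.77 without P14 litter 1, while 138495_f_at gave 0.01.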

How the data were processed

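RNA from V1 of 10 litters was measured on 30 arrays. The deposited values are signal intensities, calculated by the authors with MAS5 per the submitters' processing notes, whose version the labels do not name. Trimmed by 2%, array means were 499.8 to 499.9, so no scaling was added. Symbols came from the array annotation, brought up to date through gene IDs (99.7% matched). A suffix such as f or r marks a probe set with relaxed design rules. Probe sets above their chip type's median (207, 252 and 183 on A, B and C) on at least 3 arrays were tested, 20724 in all. Each chip type was fitted with limma 3.58.1 in R 4.3.3 (lmFit, eBayes with a variance trend, age as the only term) on log2(signal + the 20th percentile), with Benjamini-Hochberg adjustment across all 3 chip types and a threshold of 0.05. The fit was tested on simulated data with independent spread for each probe set. These held no array that deviates on many probe sets together, so they cannot show how the fit handles P14 litter 1. The sample titles all open with litter 1; the second litter number was taken as the litter, and nothing says how separate the litters were, so p-values measure only the spread between these samples. Background was the 95th percentile of bacterial control probe sets (98.4, 153 and 252). Paralogue pairs were tested by exact permutation of the litters over the ages (4200 arrangements, two-sided by construction). The members and lists were chosen with earlier results of these data known. Named with a value in every litter were members past the threshold with all litters or without P14 litter 1, the 2 largest P14 to P60 changes per group, and the best known of each group; Vamp1, Rab3a and further probe sets were added after their values were seen. Alternatives covered the constant, the filter, quantile normalization, the variance trend, array weights, the replicate number, the adjustment, the probe set, each litter left out, and a restricted set. The number of arrays limits the precision.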

Additional observations from a re-analysis of the deposited data

Results flagged for a closer look

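Among the P60 litters of the 43 tested members, 1 group held a litter far from the rest. For Pclo, the active zone protein piccolo, P60 litter 3 read 2468 on 97753_at, while litters 1, 2 and 4 read 1295, 1140 and 1180. A gap this wide is met by chance in about 1 of 20 groups.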

How the results depend on the processing

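Over 19 alternative settings the 86 changes of single members to P28 and to P60 kept their direction or stayed uncalled in 1608 of 1634 values; 15 values gained a call, 10 lost one (all Rab3b) and 1 reversed, Stx1a, at -0.87 without P14 litter 1 (-0.87 to 0.94 when 1 litter was left out). From P14 to P60 the limma call of 1 member became 0 without a filter on low signal (Rab3b adjusted p = 0.0564), 3 in the restricted set (Napb, Syt11 and Rab3b), 7 with array weights (Napb and Syt2 higher; Vamp1 on its scattered kept probe set, Syt1, Syt11, Syp and Rab3b lower) and 0 to 4 when 1 litter was left out. Array weights also called 5 members from P14 to P28 and 8 over the 3 ages, and the restricted set and leaving out P14 litter 1 each called 1 over the 3 ages. Paralogue pairs passing went from 0 to 1 without P14 litter 1 and to 3 on the brightest probe sets. Over all probe sets, the 82 limma calls from P14 to P60 became 497 without P14 litter 1, 441 in the restricted set, 3621 with array weights, 51 without the variance trend and 0 to 260 when another litter was left out. The cause was not tested. Litter numbers are not stated to pair litters of different ages. Of 9 same-number pairs, 1 correlated above 0.1 (range -0.06 to 0.13), and of 18 different-number pairs 0 did (range -0.12 to 0.09). With so few litters at each age, these correlations cannot show whether the litters were paired. With the litter number as a replicate block 0 members and 0 of all probe sets were called (Rab3b adjusted p = 0.176). Dim probe sets, such as Rab3b at P60, lie near background, which limits the size of their changes.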
